A study of Mus musculus with 4 samples.

Results

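The let-7 family was followed in the small RNA of mouse sperm through 9 microRNA hairpins, listed in the tables as mmu-let-7a-1, mmu-let-7b, mmu-let-7c-2, mmu-let-7d, mmu-let-7e, mmu-let-7f-2, mmu-let-7g, mmu-let-7i and mmu-mir-98 and named below without the prefix. They were taken by name, 1 hairpin for each mature sequence, from the 605 microRNA hairpins among the 70584 features of the deposited tables. The second genomic copies of let-7a, let-7c and let-7f (let-7a-2, let-7c-1 and let-7f-1) are not among the 9; they are used to show how reads were divided between copies, for sums per mature form, and as genomic neighbours of members. The sperm came from the cauda epididymis, where sperm are stored, of adult C57BL/6 mice. The groups were an original cross (2 mice) and an extra cross to wildtype (2 mice), with 1 library per mouse. The study's title sets sperm prone to LoxP silencing against sperm that are not, LoxP being the recognition sequence of Cre recombinase. The labels name no Cre driver or allele and leave unsaid which of the crosses is the prone one.

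MicroRNAs are cut from hairpin transcripts by Drosha and Dicer and loaded into Argonaute proteins. The first bases of the mature strand, the seed, pair with target messenger RNAs. let-7 was found in worms as a regulator of developmental timing, and in mammals the family represses growth and cell cycle genes such as Hmga2, Myc and Ras. LIN28 proteins block the maturation of let-7 precursors, and let-7 in turn represses Lin28. Members of the family are abundant in most adult tissues, so their presence does not mark a cell type.

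The mature sequences (RefSeq, GRCm38.p6) are shown because they are what separates the members: all 9 carry the same seed, bases 2 to 8, in capitals, and differ only outside it.
let-7a-5p: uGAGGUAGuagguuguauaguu
let-7b-5p: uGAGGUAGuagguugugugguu
let-7c-5p: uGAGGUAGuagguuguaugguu
let-7d-5p: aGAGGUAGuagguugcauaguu
let-7e-5p: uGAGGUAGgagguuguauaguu
let-7f-5p: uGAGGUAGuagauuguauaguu
let-7g-5p: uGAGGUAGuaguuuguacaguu
let-7i-5p: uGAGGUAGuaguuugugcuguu
miR-98-5p: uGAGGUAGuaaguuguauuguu
Each is 22 bases long. Counted from 1 at the 5′ end, with the let-7a base first, let-7c differs from let-7a only by A19G, let-7e only by U9G and let-7f only by G12A. let-7b carries A17G and A19G, let-7d carries U1A and U16C, let-7g carries G12U and U18C, and miR-98 carries G11A and A19U. let-7i is the most distant from let-7a, with G12U, A17G, U18C and A19U. Of the mature entries in RefSeq, 13 of 1738 had this seed, and the only ones outside the family's hairpins used here, miR-1961 and let-7k, matched no feature of the tables by name.

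The hairpins lie at 6 places in the genome (GRCm38), each within another gene of the GENCODE annotation. On chromosome 13, let-7a-1 (chr13:48538179-48538272) and let-7d (chr13:48536012-48536114), on the minus strand, lie with let-7f-1 within 2261 bases, in exons of the long noncoding RNA 6720427I07Rik. On chromosome 15, let-7c-2 (chr15:85706603-85706697) and let-7b (chr15:85707319-85707403) lie within 801 bases, in exons of the noncoding transcript Lncppara. On the X chromosome, let-7f-2 (chrX:151912346-151912428) and mir-98 (chrX:151913214-151913321) lie within 976 bases, in introns of Huwe1, a ubiquitin ligase. let-7e (chr17:17830352-17830444) lies between mir-99b and mir-125a, all within 692 bases, in an intron of Spaca6, a gene required for sperm to fuse with the egg. let-7g (chr9:106178840-106178927) lies in an intron of Wdr82, and let-7i (chr10:122985640-122985724, minus strand) in an exon of the transcribed pseudogene D630033A02Rik.

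Values are in RPM, read numbers that the authors scaled to a common library total. For replicate 1, a single read was worth 1.58 RPM in the original and 0.642 RPM in the extra cross. For replicate 2 it was worth 0.561 and 0.238 RPM, so original-cross replicate 1 is the shallowest library. In the same order the 9 hairpins together held 1641.5, 6136, 5591.5 and 12536 reads. For the 6 members with a single genomic copy, 24 of 24 values were whole reads within a tolerance of 0.05 reads. For the copies of let-7a, let-7c and let-7f, 24 of 24 values fell on multiples of 0.5 of a read and only 10 on whole reads. let-7f-1 and let-7f-2 summed to whole reads in 4 of 4 libraries. The copies of let-7a did so in 1 of 4 and those of let-7c in 1 of 4, but let-7a and let-7c added together did so in 4 of 4. let-7a-1 and let-7c-2 share a 3′ strand in RefSeq, the only one shared between different members, printed with its own bases 2 to 8 in capitals:
let-7a-1-3p and let-7c-2-3p: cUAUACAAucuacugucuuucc
The values of let-7a-1, let-7c-2 and let-7f-2 therefore hold reads divided with other hairpins and cannot be taken as the reads of a single locus. let-7c-1 measured 642 and 1139 RPM (original cross) against 1376 and 1031 RPM (extra cross), nearly the values of let-7c-2. The difference between let-7f-2 and let-7f-1 was 21, 24, 123 and 199 reads in the library order given above.

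Markers of other cells were measured in the same libraries, as bulk RNA. MicroRNAs of epididymal epithelium (5 of 5 measured, the mir-200 family and mir-141) summed to 4394 and 2055 RPM (original cross) against 10408.5 and 5315 RPM (extra cross). Those of smooth muscle and stroma (6 measured) summed to 8547 and 6264 RPM against 3382 and 5078 RPM, and those of blood (8 measured) to 6519.6 and 1229 RPM against 11186 and 1136 RPM. None of these was at 0 in any library. The germ cell microRNAs mir-34b, mir-34c and mir-449a summed to 1918 and 748 RPM (original cross) against 1813 and 1204 RPM (extra cross). The 7 sperm transcripts, such as Prm1 and Odf1, summed to only 2.97 to 6.17 RPM, with 6 of the 7 at 0 in original-cross replicate 1. The sum in that library, 3.16 RPM, came from Odf1 alone, after its deposited RefSeq values were multiplied by 26.2. The part of these cells in the let-7 values was not tested, and in bulk RNA fewer cells of a type and less RNA per cell cannot be told apart.

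let-7c-2 was the most abundant of the 9 hairpins and mir-98 the least. Over the 4 libraries let-7c-2 averaged 1054 ± 316 RPM (SD, n = 4), let-7d 713 ± 407 RPM, let-7f-2 510.1 ± 166 RPM, let-7i 297 ± 80.2 RPM, let-7b 229.5 ± 90.1 RPM and let-7a-1 173 ± 36.9 RPM. let-7g (84.8 ± 17.7 RPM) and let-7e (82.0 ± 16.8 RPM) followed, and mir-98 was lowest at 18.0 ± 5.82 RPM. The mature forms have the same length, but let-7a-1, let-7c-2 and let-7f-2 each hold only part of the reads of their form, so levels of different mature forms are compared fairly only with copies summed. Of the 8 pairs of neighbours in this order, 4 kept it in every library: let-7f-2 above let-7i, let-7b above let-7a-1, let-7a-1 above let-7g, and let-7e above mir-98. let-7c-2 was above let-7d in 3 of 4 libraries and let-7i above let-7b in 3. let-7d was above let-7f-2 and let-7g above let-7e in 2 each, and both orders turned with the replicate number. In replicate 1 let-7d had 965 and 1154 RPM (original and extra cross) against 335 and 407 RPM for let-7f-2. In replicate 2 it had 385 and 349.5 RPM against 684 and 615 RPM. The order of these neighbours therefore did not hold across the libraries. With genomic copies summed the leading form was again let-7c (2101 ± 622 RPM), above every other form in all 4 libraries, followed by let-7f (979 ± 313 RPM), let-7d and let-7a (341 ± 73.3 RPM). On this scale let-7a was above let-7b in all 4 libraries, the reverse of the order of let-7a-1 and let-7b as hairpins. Of the 8 pairs of neighbours with copies summed, 3 kept their order in every library: let-7c above let-7f, let-7b above let-7g, and let-7e above miR-98.

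**Figure D1:**
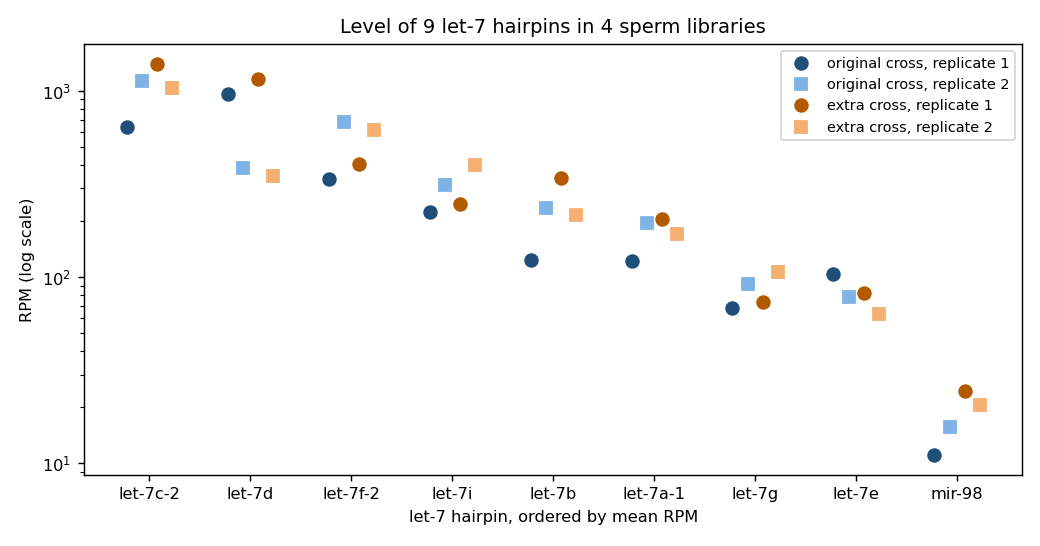
Level of each let-7 hairpin in RPM (log axis) in the 4 sperm libraries, hairpins ordered by mean; circles are replicate 1 and squares replicate 2, blue the original and orange the extra cross. let-7d has its 2 replicate 1 libraries (965 and 1154 RPM) apart from its 2 replicate 2 libraries (385 and 349.5 RPM), whatever the cross.

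No let-7 hairpin differed between the crosses beyond the spread between the libraries of a cross, in which mouse and deposited table cannot be told apart. In the limma fit on log2(RPM + 1), 0 of 9 hairpins passed a Benjamini-Hochberg adjusted p of 0.05 and 0 of 9 an unadjusted p of 0.05. Over all 760 small RNA features tested, 0% passed the adjusted and 14.7% the unadjusted threshold. The difference, extra minus original cross, was positive for 8 of 9 hairpins on the deposited scale, where 64.1% of the 206 tested microRNA hairpins were positive; it was positive for 9 of 9 with libraries scaled by median ratios, 6 with the 5 small RNA classes as the total, 5 with the microRNA class less mir-10a and mir-10b as the total and 3 where every class had its own scaling. The share of positive microRNA hairpins under these other scalings is not given here. The median over all features tested moved with the scaling too. It was 0.35 with median ratios and -0.26 with the 5 classes as the total. It was -0.36 with the microRNA class less mir-10a and mir-10b and -0.081 where every class had its own scaling. On the deposited scale the median difference of the 9 hairpins was 0.26, beside 0.20 over the microRNA hairpins and -0.12 over all features tested.

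mir-98, the least abundant member, was the only hairpin whose groups did not overlap with the extra cross higher (1 of 9, beside 11.7% of the tested microRNA hairpins). It measured 11.1 and 15.7 RPM (original cross) against 24.4 and 20.7 RPM (extra cross), a log2 difference of 0.73 ± 0.45 (SE; limma adjusted p = 0.826). These values rest on 7, 28, 38 and 87 reads. The 95% Poisson interval, which covers counting error only, ran from 10.4 to 22.7 RPM in the second original-cross mouse and from 16.6 to 25.5 RPM in the second extra-cross mouse, so the nearest libraries of the 2 crosses were within counting error of each other.

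let-7e was the only member with a negative estimate. It measured 104 and 78.0 RPM (original cross) against 82.2 and 63.7 RPM (extra cross). The log2 difference was -0.31 ± 0.45 (SE; limma adjusted p = 0.995). It was lower in the extra cross within each replicate number (1 of 9 members, beside 23.3% of microRNA hairpins), but the groups overlapped, and no member had groups that did not overlap with the extra cross lower (0 of 9, beside 6.31%).

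let-7g and let-7i, which share the base change at position 12 and have the closest profiles of any pair of members, were higher in the extra cross within each replicate number, as was mir-98 (3 of 9 members, beside 42.7% of microRNA hairpins). let-7i measured 223 and 314 RPM (original cross) against 248 and 403 RPM (extra cross). let-7g measured 67.9 and 91.4 RPM (original cross) against 73.2 and 107 RPM (extra cross). For both, the spread between the libraries of a cross was wider than the gap between crosses: the log2 differences were 0.26 ± 0.55 and 0.16 ± 0.47 (SE; limma adjusted p = 0.995 for each).

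The other members turned direction between the replicate numbers. let-7a-1, let-7b, let-7c-2, let-7d and let-7f-2 were higher in the extra cross of replicate 1 and lower in that of replicate 2 (5 of 9, beside 21.4% of microRNA hairpins). let-7b showed the widest gap, with 123 RPM (original) and 343 RPM (extra) in replicate 1, a 2.78-fold difference, but 236 and 216 RPM in replicate 2. let-7c-2 had 642 and 1403 RPM in replicate 1 and 1137 and 1036 RPM in replicate 2. let-7a-1 had 122 and 205 RPM in replicate 1 and 196 and 171 RPM in replicate 2. For let-7b, let-7c-2 and let-7a-1, original-cross replicate 1, the shallowest library, was the lowest of the 4, and the other 3 libraries lay closer together. Original-cross replicate 1 was also the lowest library for let-7f-2, let-7g, let-7i and mir-98, but not for let-7d or let-7e. The gap of let-7b in replicate 1 exceeded counting error, with 95% Poisson intervals of 97.4 to 154 RPM and 314 to 373 RPM. The limma differences were 0.67 ± 0.59 for let-7b, 0.50 ± 0.58 for let-7c-2 and 0.27 ± 0.51 for let-7a-1 (SE; adjusted p = 0.995 for each).

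**Figure D2:**
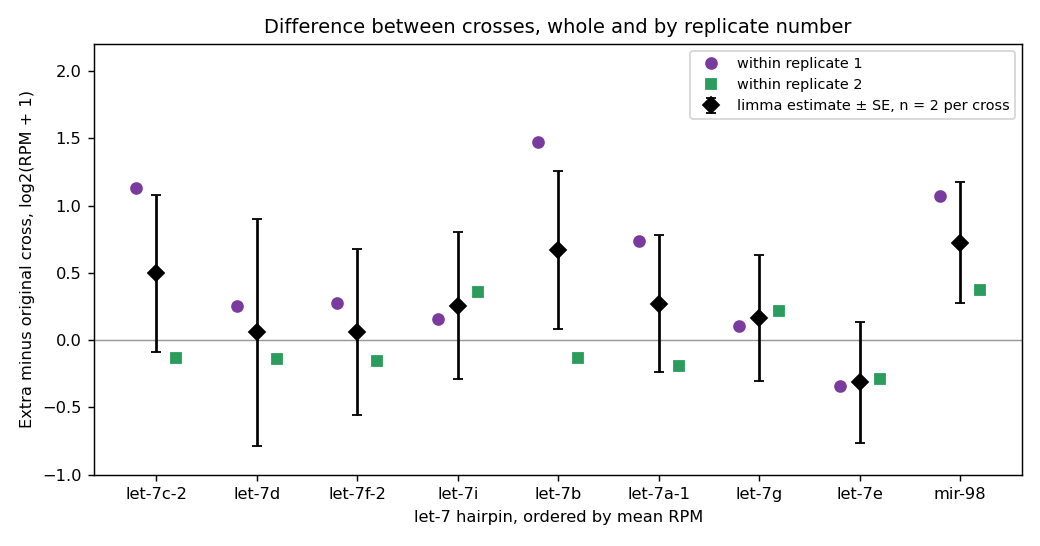
Extra minus original cross on the log2(RPM + 1) scale for each let-7 hairpin; diamonds are the limma estimate with SE over 2 libraries per cross, circles and squares the difference within replicate 1 and within replicate 2. let-7b lies at 1.47 within replicate 1 and at -0.13 within replicate 2.

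Summed over the 9 hairpins, the family measured 2594 and 3137 RPM (original cross) against 3939 and 2981 RPM (extra cross). The difference in mean log2 was 0.26, with 0.60 within replicate 1 and -0.07 within replicate 2 (two-sided exact permutation p = 0.667; 2 against 2 cannot go below 0.333). Across scalings it ran from 0.73 with median ratios (exact p = 0.333) through 0.13 with the 5 small RNA classes as the total and 0.023 with the microRNA class less mir-10a and mir-10b to -0.20 where every class had its own scaling. As a share of all microRNA reads the 9 hairpins took 0.940% and 2.67% in the original cross and 0.892% and 2.12% in the extra cross (two-sided exact permutation p = 0.667). With all copies counted the share was 1.32% and 4.33% in the original cross and 1.34% and 3.38% in the extra cross. With mir-10a and mir-10b, the most abundant hairpins, left out of the class, the 9 hairpins took 1.85% and 5.0% against 2.2% and 4.35%. The crosses overlapped by each measure and their order within replicate 1 depended on it. The replicate 2 libraries were the high ones by each share, but in RPM the highest library was extra-cross replicate 1.

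The make-up of the family varied with the replicate number, above all through let-7d and let-7f-2. let-7c-2 took 24.7% of the 9-hairpin sum in original-cross replicate 1 and 34.7% to 36.2% in the other 3 libraries. let-7d took 37.2% and 29.3% in the replicate 1 libraries of the original and extra cross, but only 12.3% and 11.7% in replicate 2. let-7f-2 showed the opposite order, with 12.9% and 10.3% in replicate 1 and 21.8% and 20.6% in replicate 2. let-7e took a smaller share in both extra-cross libraries (2.09% and 2.14%) than in the original cross (4.02% and 2.49%), and mir-98 a larger one (0.619% and 0.694% against 0.426% and 0.501%). For both let-7e and mir-98, the exact permutation p was 0.333, two-sided, the smallest that 2 against 2 allows. With only 6 splits, any groups that do not overlap give this p, so it cannot tell these shares from chance. The mir-98 share rests on 7 reads in original-cross replicate 1. With copies summed in the total, let-7d took 26.4% and 19.5% in replicate 1 and 7.58% and 7.37% in replicate 2, and let-7f 17.4% and 13.5% against 25.5% and 24.9%. let-7c then led in every library, with 35.1% to 47.1%.

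**Figure D3:**
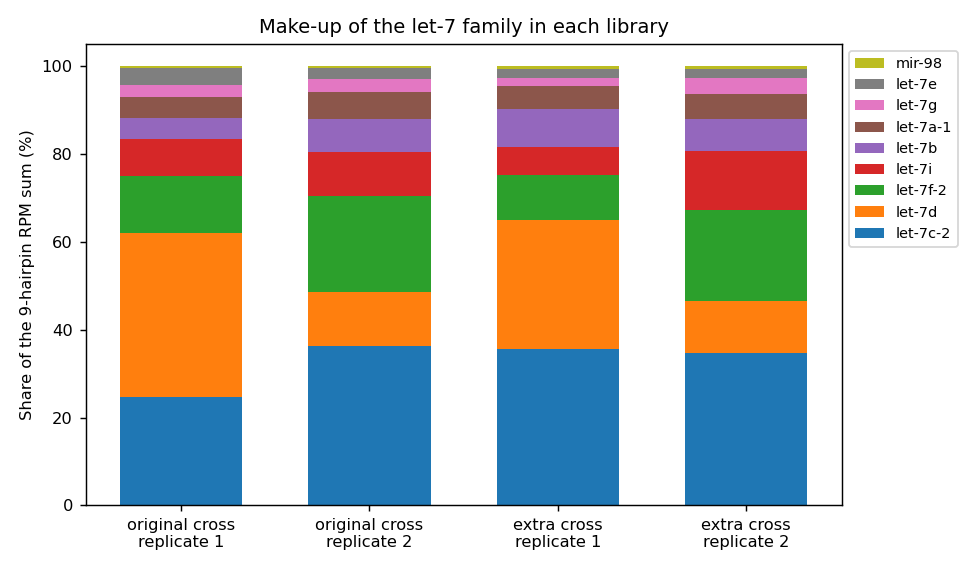
Share of the summed RPM of the 9 let-7 hairpins taken by each hairpin in each library, in percent. The let-7d band is 37.2% and 29.3% in the replicate 1 libraries and 12.3% and 11.7% in the replicate 2 libraries.

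Most microRNA hairpins were lower in replicate 2 than in replicate 1 of both crosses. In the original cross 7 of 9 let-7 members were instead higher in replicate 2 (13.6% of microRNA hairpins were), and in the extra cross 3 of 9 (11.2%). In both crosses at once replicate 2 was below replicate 1 for 82% of the 206 tested microRNA hairpins but for 2 of the 9 members, let-7d and let-7e. It was above replicate 1 in both crosses for 6.8% of hairpins and for 3 members, let-7f-2, let-7g and let-7i. The median difference, replicate 2 minus 1 on the log2(RPM + 1) scale, was 0.49 for the 9 members and -1.07 for the microRNA hairpins in the original cross, and -0.26 and -1.15 in the extra cross. The microRNA class as a whole held 275809 and 117322 RPM in replicates 1 and 2 of the original cross and 441544 and 140437 RPM in those of the extra cross. Each of these is a comparison of 1 mouse with 1 mouse, with no test, and the replicate number goes with the deposited table, so mouse and table cannot be told apart.

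let-7d stood apart from the rest of the family in this respect. Its level was 965 and 1154 RPM in replicate 1 and 385 and 349.5 RPM in replicate 2, which is 2.51-fold and 3.30-fold lower in replicate 2 of the original and extra cross. The 95% Poisson interval was 890.4 to 1045 RPM in replicate 1 and 357 to 415 RPM in replicate 2 of the original cross, so the gap was beyond counting error. Its log2 differences, -1.32 and -1.72, were below the medians of all microRNA hairpins, and let-7d was the only member of which this held in either cross. Of the tested microRNA hairpins, 38.8% lay lower still in the original cross and 22.3% in the extra cross. Measured as the root mean square difference of centred log2 profiles over the 4 libraries, let-7d was farthest from the mean of the other 8 members (0.90), and let-7a-1 nearest (0.13).

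Values of genomic neighbours did not all share a profile. Where a neighbour has another copy elsewhere (let-7a-1, let-7f-1 and let-7c-2), its value can hold reads of that copy, so the shares below describe the deposited values and not what a locus produced. let-7d, let-7a-1 and let-7f-1 lie in the same transcript on chromosome 13, yet let-7d made up 69.5% and 65.9% of the summed values in replicate 1 and 32.2% and 32.1% in replicate 2, while let-7f-1 went the other way, with 302 and 615 RPM in the original-cross mice and 391 and 568 RPM in the extra-cross mice. let-7e made up 2.24% and 1.52% of its cluster in replicate 1 and 4.57% and 4.42% in replicate 2. Its neighbours mir-99b and mir-125a differed between replicates by -1.57 and -1.45 in the original cross and by -1.97 and -1.94 in the extra cross, against -0.41 and -0.36 for let-7e. For let-7c-2 and let-7b, neighbours on chromosome 15, let-7c-2 held 80.4% to 83.9% of the summed values in the 4 libraries, but its reads were divided with let-7c-1 of chromosome 16.

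**Figure D4:**
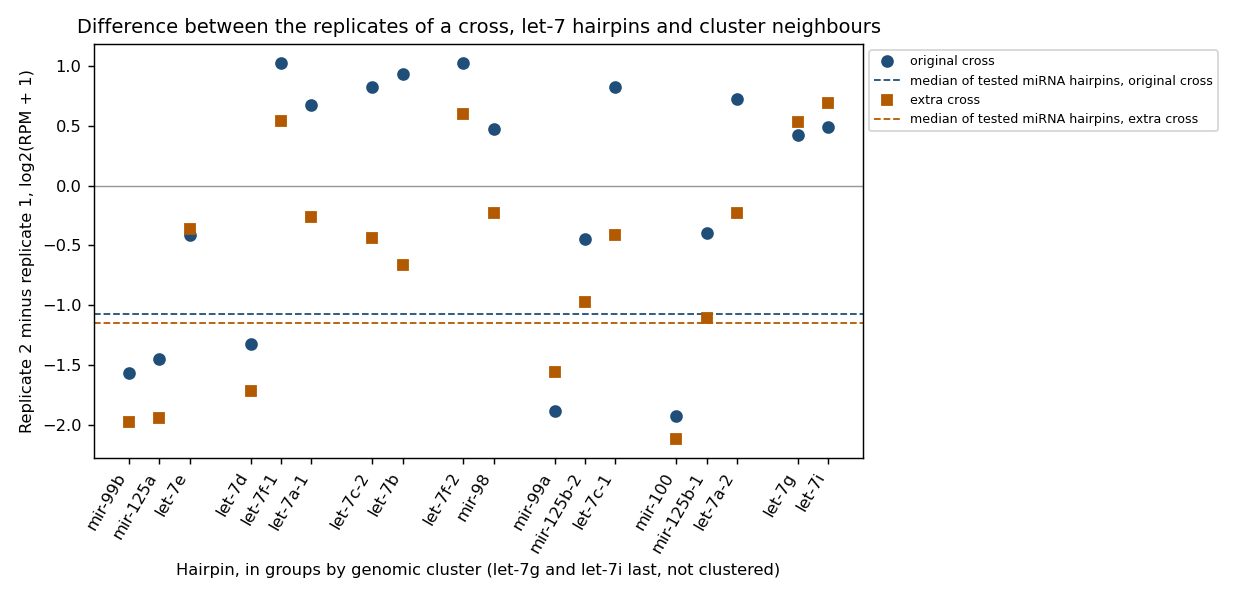
Replicate 2 minus replicate 1 on the log2(RPM + 1) scale in the original cross (circles) and the extra cross (squares) for let-7 hairpins and their genomic neighbours, grouped by cluster; dashed lines are the medians of the 206 tested microRNA hairpins (-1.07 and -1.15). let-7d lies below both lines with mir-99b, mir-125a, mir-99a and mir-100, and the other let-7 hairpins lie above them.

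Among the 36 pairs of members, the most alike were let-7g and let-7i (root mean square difference 0.078, on different chromosomes), then let-7b and let-7c-2 (0.12, neighbours) and let-7a-1 and let-7c-2 (0.14). The X-linked neighbours let-7f-2 and mir-98 ranked 18 of the 36 (0.48), and let-7a-1 and let-7d ranked 30 (0.88). Outside the family, the 5 hairpins nearest to the mean profile of the members, of 194 compared, were mir-221 (0.14), mir-690 (0.16), mir-369 (0.24), mir-26b (0.24) and mir-30b (0.32). With 4 libraries such likeness is a description only. mir-221 measured 45.8 and 46.0 RPM (original cross) against 58.4 and 45.9 RPM (extra cross).

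Transcripts of the let-7 pathway were scarce in these size-selected libraries. The RefSeq values of original-cross replicate 1, the first value given for each gene, are the deposited ones multiplied by 26.2. Of 35 genes listed (6 regulators, 9 processing factors and 20 known targets), 29 were found, 3 of the regulators, 8 of the processing factors and 18 of the targets. Only 3, all targets, reached a mean of 10 RPM, and 0 of those 3 passed the adjusted p of 0.05 in the limma fit of 477 RefSeq genes (0% of which passed). Igf1r, the receptor of insulin-like growth factors, measured 20.5 and 11.8 RPM (original cross) against 7.06 and 7.37 RPM (extra cross), a log2 difference of -1.01 ± 0.44 (SE; adjusted p = 0.204). Ccnd2, a cyclin of the early cell cycle, had 14.2 and 14.6 RPM against 6.42 and 7.37 RPM, a log2 difference of -0.97 ± 0.44 (SE; adjusted p = 0.216). Fasn, the fatty acid synthase, had 50.6 and 16.8 RPM against 25.7 and 15.2 RPM, a log2 difference of -0.54 ± 0.49 (SE; adjusted p = 0.461). The median over all 477 genes was -0.50. With the RefSeq values as deposited, Fasn was the only gene of the list above the minimum, its difference turned to 1.52 ± 2.35 (SE; adjusted p = 0.757), and the median over the 299 genes tested was 1.49. Dicer1, which cuts let-7 precursors, had the highest mean of the processing factors, with 3.16 and 2.81 RPM (original cross) against 7.70 and 6.42 RPM (extra cross). In a limma fit with a minimum mean of 1 RPM, over 6718 genes, its log2 difference was 1.01 ± 0.44 (SE; adjusted p = 0.562). In that fit 0 of the 6718 genes passed the adjusted threshold, and their median was -0.38. Of the 15 listed genes in it, 2 were positive and 13 negative. The other processing factors tested, Drosha, Xpo5 and Ago1, were at -0.26, -0.19 and -0.13. The Dicer1 values rest on few reads, with 1 read worth 1.58 RPM in original-cross replicate 1. Of the regulators, Tut7, which adds uridines to let-7 precursors, was highest with a mean of 1.46 RPM. The host transcript Lncppara of let-7b and let-7c-2 held 0 to 6 reads per library.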

How the data were processed

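Values were deposited by the authors in RPM, in 2 tables, 1 per replicate number, with 1 column per cross. CASAVA 1.8.2, Bowtie 1.1.2 and the build mm10 are named, without their roles, in the submitters' processing notes. The 4 barcoded libraries shared a lane, per the labels' protocols. What the RPM total counts, and how reads with several matches were assigned, is not stated there. The commonest microRNA value of a column was taken as 1 read. It implies totals of 632859 and 1782506 reads in the original cross and 1557766 and 4205692 in the extra cross (replicates 1 and 2), so precision is lowest in original-cross replicate 1. Features missing from a table were given 0.

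The main test was limma 3.58.1 in R 4.3.3 on log2(RPM + 1), with a variance trend, cross type as the only term, a minimum mean of 10 RPM per feature, and Benjamini-Hochberg adjustment over 760 small RNA features. This scale understates changes of low features. RefSeq transcripts were summed by gene (55925 of 68434 matched a symbol) and fitted separately, after the RefSeq values of original-cross replicate 1 were multiplied by 26.2, the ratio of its 1-read values. The fits were also run on simulated data with known changes and independent noise. That noise held no replicate effect, so the run does not show the power of the fits on these libraries. Exact permutation tests and Poisson intervals used Python 3.11.15 and scipy 1.17.1. Sequences came from RefSeq, gene positions from GENCODE. The members, lists and tests were chosen with earlier results of these data known. The text names all members, their other copies, the cluster neighbours of members and the 5 hairpins nearest in profile. The other copies have neighbours too, mir-99a and mir-125b-2 for let-7c-1 and mir-100 and mir-125b-1 for let-7a-2. No values are given for these neighbours. Pathway genes named were those in the main fit. Also named, chosen after their values were seen, were the processing factors with a mean of at least 1 RPM and the highest regulator.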

Additional observations from a re-analysis of the deposited data

How the results depend on the processing

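No let-7 hairpin tested passed the adjusted threshold under any setting tried: other pseudocounts, filters, scalings, the fit without a variance trend, copies summed, the replicate block, or leaving out a library. Median-ratio scaling moved the median of all features from -0.12 to 0.35, the median of the 9 hairpins from 0.26 to 0.72, the family sum from 0.26 to 0.73, and let-7e to 0.14. With the 5 classes as the total, let-7d was -0.078 and let-7f-2 -0.072. With each class scaled on its own the median was -0.21, the family sum -0.20, let-7a-1 -0.19, let-7d -0.41, let-7f-2 -0.40, let-7g -0.30 and let-7i -0.21. With the microRNA class less mir-10a and mir-10b as the total, an alternative chosen after seeing the data, the median was 0.016, the family sum 0.023, let-7d -0.18, let-7f-2 -0.18 and let-7g -0.075. The cause was not tested. With the higher minimum mean mir-98 could not be tested.

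Leaving out each library gave log2 differences of -0.063 to 0.61 for let-7a-1, 0.20 to 1.14 for let-7b, 0.084 to 0.91 for let-7c-2, -0.80 to 0.92 for let-7d, -0.52 to -0.11 for let-7e, -0.45 to 0.58 for let-7f-2, -0.11 to 0.43 for let-7g, -0.090 to 0.60 for let-7i and 0.49 to 0.96 for mir-98. The family sum ranged from 0.063 to 0.47 and the median from 0.0096 to 0.58. let-7d was -0.80 without extra-cross replicate 1 and 0.92 without extra-cross replicate 2. Differences in share of the family, in percentage points, ranged from -0.77 to 0.75 for let-7a-1, 0.44 to 3.22 for let-7b, -1.06 to 10.4 for let-7c-2, -16.7 to 8.22 for let-7d, -1.91 to -0.37 for let-7e, -7.03 to 3.29 for let-7f-2, -0.91 to 0.81 for let-7g, -3.0 to 4.2 for let-7i and 0.16 to 0.23 for mir-98. A lone library was assumed to vary like the other cross.

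With the replicate number as a block, 171 of 760 features passed the adjusted threshold (36 higher, 135 lower), against 0 without it. Of the 9 hairpins, 0 passed it (lowest adjusted p 0.127, let-7b). The unadjusted limma p in the block fit was 0.034 for let-7b and 0.043 for let-7c-2. With median-ratio scaling and no block it was 0.044 for mir-98. These 3 values were below the unadjusted threshold, which no let-7 hairpin passed in the main fit. Differences between replicates correlated between crosses (r = 0.87 over 760 features), but with 2 pairs the numbers were not taken to pair the mice. Depth limits mir-98, at 7 reads in original-cross replicate 1.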
